A study of Mus musculus with 4 samples.

Results

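The translation initiation factors described here are the 51 protein-coding mouse genes whose symbol begins with Eif and a digit, taken from the 55536 genes of the deposited tables, of which 22028 are protein-coding. Members were chosen by symbol alone: of 56 Eif symbols that are not marked as pseudogenes, the stress kinases Eif2ak2 and Eif2ak3, the sex-linked pair Eif2s3x and Eif2s3y, and Eif2c5, which has no protein-coding transcript, were left out. No measured level entered the choice. The libraries were poly(A)-selected RNA-seq libraries from macrophages of C57BL/6J mice, grown as primary cells from bone marrow. They form 1 group of 4 biological replicates, all with the same donor label, and all received 100 ng/mL of a stimulus for 60 min. In the labels it is Lipid A, a bacterial lipid, in 1 field and lipoprotein A, listed as a protein, in another, so only the word stimulus is used here. Unstimulated macrophages were not analysed here, and the sex and age of the animals were not collected per the labels. The values therefore give the levels of the factors in stimulated macrophages and their spread between libraries, and no effect of the stimulus.

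Initiation is the step at which a ribosome is placed on the start codon of an mRNA. The factor eIF2 brings the initiator tRNA and GTP to the small ribosomal subunit and is recharged by eIF2B, eIF1, eIF1A and eIF5 help to choose the start codon, and eIF3 is the large scaffold that holds these parts together. The cap-binding protein eIF4E, the scaffold eIF4G and the helicase eIF4A form eIF4F, which loads capped mRNA, and the eIF4E-binding proteins keep eIF4E from that complex when they are not phosphorylated. In macrophages, signalling from pattern-recognition receptors reaches these factors through mTOR, MNK and the eIF2 kinases, so mRNA level is 1 layer of a system that is also controlled by phosphorylation, which these data do not measure.

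The 4 libraries held 26917324, 30042947, 35277710 and 39438414 estimated gene counts in replicates 1 to 4. The deposited file lists name 6 read files for replicates 1 and 2 and 4 for replicates 3 and 4. All 6 macrophage markers (Lyz2, Csf1r, Adgre1, Cd68, Itgam and Mertk) were at 1 TPM or more in every library. Here TPM is a level scaled for transcript length and library size. Their sums were 18395, 33258, 19035 and 26228 TPM, lower in replicates 1 and 3 than in replicates 2 and 4. Lyz2 made up most of each sum, at 14541, 28530, 14293 and 21375 TPM. Csf1r and Adgre1 were also lower in replicates 1 and 3. The others were not: Itgam was highest in replicate 1, at 151.5 TPM, and Cd68 and Mertk in replicate 3, at 3456 and 97.7 TPM. By the test described below, 3 of the 6 were called variable. Markers of T cells and B cells each summed to at most 0.21 TPM in every library; 3 dendritic cell markers summed to 0.77 to 1.31 TPM and 2 stromal markers to 0.68 to 1.25 TPM. The 6 neutrophil and granulocyte precursor markers summed to 124, 71.2, 546 and 47 TPM, so replicate 3 was high. Replicate 1 stood apart in 2 other measures: the 6 subunits of the replicative helicase, Mcm2 to Mcm7, genes of DNA replication, summed to 396 TPM there against 46.7, 90.7 and 54.8 TPM, and the ribosomal RNA gene CT010467.1 took 12.34% of counts against 3.258%, 4.437% and 6.985%. In such bulk samples, fewer cells of a type and less RNA per cell cannot be told apart. The part of these differences in the results below was not tested, and the calls of variable genes are also given without replicate 1.

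Nearly the whole initiation machinery was detected at the mRNA level. Of the 51 factors, 49 were at 1 TPM or more in every library, 46 had a mean of 10 TPM or more, and 15 had a mean of 100 TPM or more. The median of the 51 means was 62.9 TPM, against 11.3 TPM over the 12626 genes with enough counts to be tested. Together the factors took 0.739%, 0.55%, 0.642% and 0.563% of gene counts in replicates 1 to 4. Their summed level was 5980, 4292, 4716 and 4363 TPM, highest in replicate 1.

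**Figure D1:**
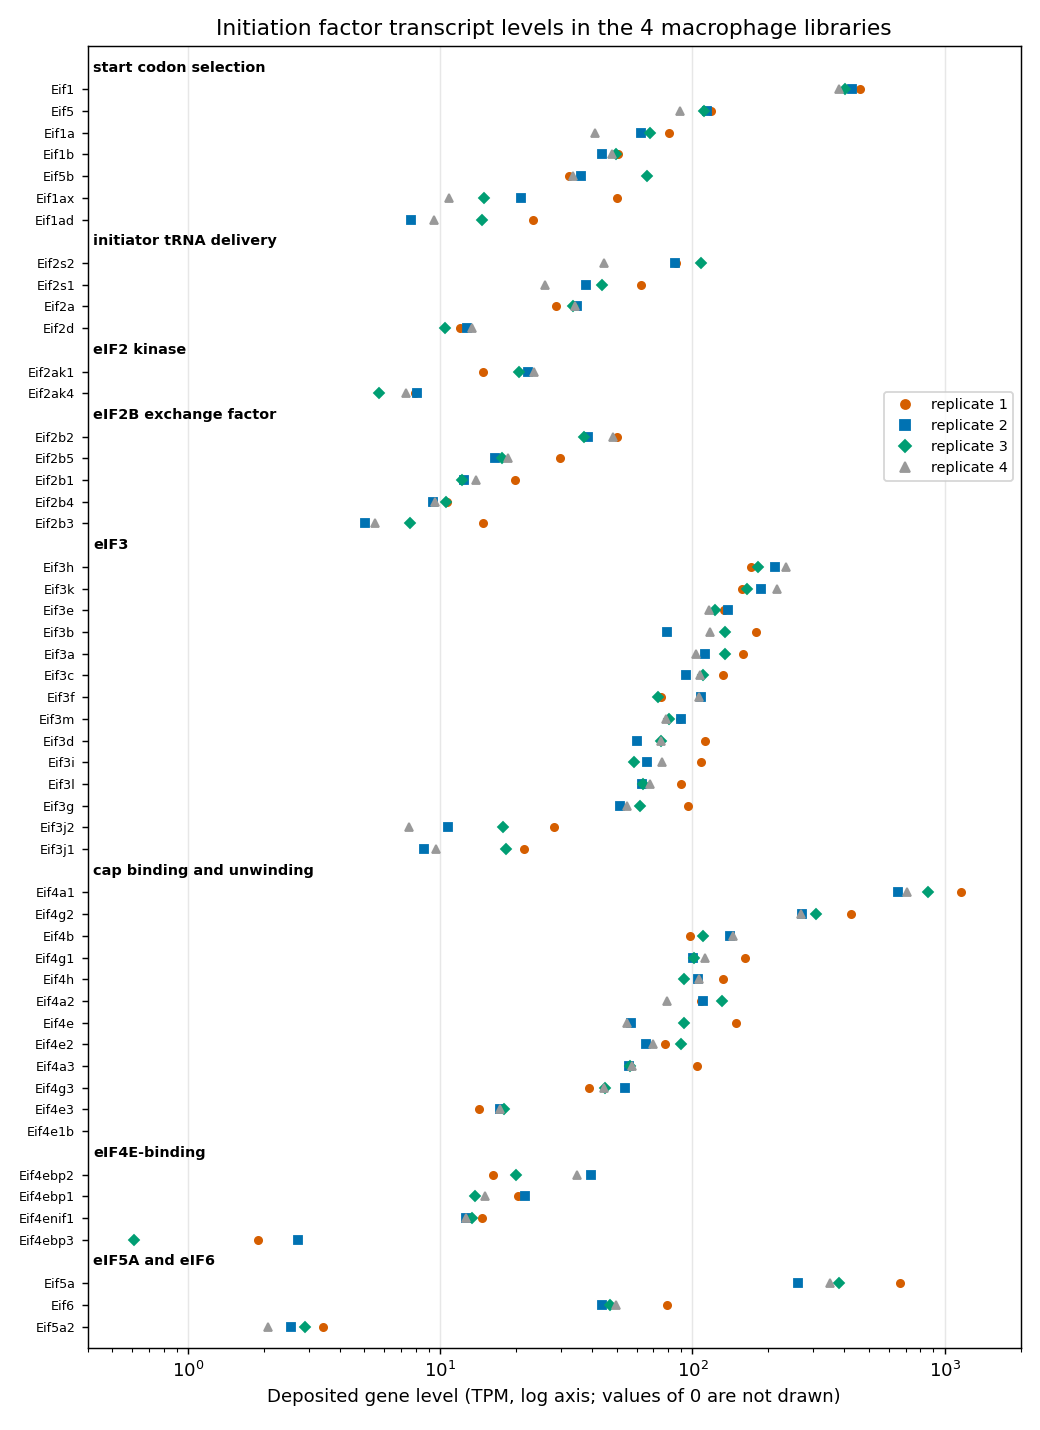
Deposited TPM of each initiation factor (log axis) by role; each symbol is 1 library, and values of 0 are not drawn. Eif4a1 lies at 652 to 1163 TPM and Eif5a2 at 2.08 to 3.41 TPM, while Eif4e1b has no point because it is listed at 0 in all 4 libraries.

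Eif4a1, the main form of the RNA helicase of eIF4F, was the most abundant factor. It lies at chr11:69666936-69672423 on the minus strand (mm10) and was at 1163, 652, 861 and 712 TPM in replicates 1 to 4, a mean of 847 ± 228 TPM (SD, n = 4), rank 150 of the 22028 protein-coding genes. Eif1, which guards start codon choice, followed at 462, 429, 403 and 381 TPM, with a mean of 419 ± 35.0 TPM (SD, n = 4). The spread of Eif1 was among the smallest of the abundant factors, with the highest scaled count 1.11-fold over the lowest. Eif5a, whose protein carries the hypusine residue and helps ribosomes through difficult peptide bonds, was at 667, 263, 382 and 352 TPM, a mean of 416 ± 175 TPM (SD, n = 4). Eif4g2, a scaffold related to eIF4G that lacks the eIF4E-binding part, was at 426, 271, 308 and 269 TPM. Each of the last 2 was highest in replicate 1 and its remaining 3 libraries lay closer together.

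The next 6 factors by mean level were 5 eIF3 subunits and Eif4b, which stimulates the helicase. Eif3h was at 170, 212, 182 and 235 TPM and Eif3k at 157, 186, 164 and 216 TPM. For both, replicate 1 was the lowest and replicate 4 the highest. Eif3b was at 178, 79.5, 135 and 117 TPM, Eif3e at 133, 138, 122 and 116 TPM, and Eif3a at 158, 112, 134 and 103 TPM. Their means of 127 TPM each did not differ beyond the spread between libraries, and the order of these 3 is not a result. Eif4b was at 97.6, 140, 110 and 145 TPM, again lowest in replicate 1. These ranks hold for mRNA and say nothing of the amounts of protein.

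At the other end, Eif4e1b, an eIF4E relative known from oocytes, had a count of 0 in all 4 libraries of the gene table, while the second deposited quantification gave it a mean of 0.268 ± 0.13 TPM (SD, n = 4). A count of 0 allows at most 3 counts, or 0.0761 to 0.111 CPM (counts scaled to library size) at these depths; this limit covers counting error only and not the difference between the quantifications. Eif4ebp3, a binding protein of eIF4E, had estimated counts of 16.2, 26.1, 7.22 and 0, or 1.89, 2.73, 0.61 and 0 TPM. It overlaps a protein-coding gene on the same strand, AC115631.1, which had a mean of 15.4 TPM, so how reads were split between both is uncertain. Eif5a2, the second eIF5A gene, was low in every library at 3.41, 2.56, 2.91 and 2.08 TPM.

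Differences between libraries were tested for each gene with a chi-square test of the counts scaled to library size, which asks whether the 4 libraries differ by more than counting noise. A gene was called variable when the Benjamini-Hochberg adjusted p was under 0.05 and its highest scaled count was at least 2-fold over its lowest. Because all 4 libraries had the same treatment, a call describes spread within the group. These p-values reflect no more than the spread of 4 libraries of 1 donor label, and part of it may be technical. Of the 50 factors with a mean count of 10 or more, 49 varied beyond counting noise (all but Eif2b4), as did 88.6% of the 12626 genes tested. The call with the 2-fold range was met by 12 factors, or 24.0%, against 33.0% of all genes tested and 21.3% of genes at a mean of 10 TPM or more. The share of variable factors was thus below that of all genes and close to that of genes at a mean of 10 TPM or more. Those genes had a median of 32.3 TPM and were not matched to the factors in level. The median range was 1.6-fold over the factors and 1.68-fold over all genes tested. By the deposited credibility intervals, which cover the uncertainty of each library's estimate, 45 of the 50 factors, or 90%, had at least 1 pair of libraries that did not overlap, as did 70.7% of all genes tested. The factors lie at higher levels, with a median of 62.9 TPM against 11.3 TPM. No such share was taken for genes of like level, so the gap between these shares is not a result about the factors.

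The called factors were Eif1ad, Eif2b3, Eif2s1, Eif2s2, Eif3b, Eif3j1, Eif3j2, Eif4e, Eif4ebp2, Eif4ebp3, Eif5a and Eif5b. Of these, 8 had their highest scaled count in replicate 1, or 16.0% of the factors tested, while 13.6% of all genes tested were called and highest there. Over all tested factors, 27 were highest in replicate 1, or 54.0%, against 35.8% of all genes tested and 33.5% of genes at a mean of 10 TPM or more. The factors' median deviation from their own means was 0.21, -0.12, -0.01 and -0.04 on the log2 scale in replicates 1 to 4. By contrast, 9 factors had their lowest scaled count in replicate 1, or 18%, against 32.6% of all genes tested. Those 9 were Eif2a, Eif2ak1, Eif3f, Eif3h, Eif3k, Eif4b, Eif4e3, Eif4g3 and Eif4ebp2, and 5 of them were highest in replicate 4. Replicate 1 is also the library with high Mcm2 to Mcm7 (6 of 6 called variable, all highest there, and 3 of 6 called without it). Without replicate 1, 6 of the 12 calls were left and none was added: Eif1ad, Eif2b3, Eif2s1, Eif3b, Eif4ebp2 and Eif5a no longer reached the 2-fold range, and the share over all genes was 16.1%.

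**Figure D2:**
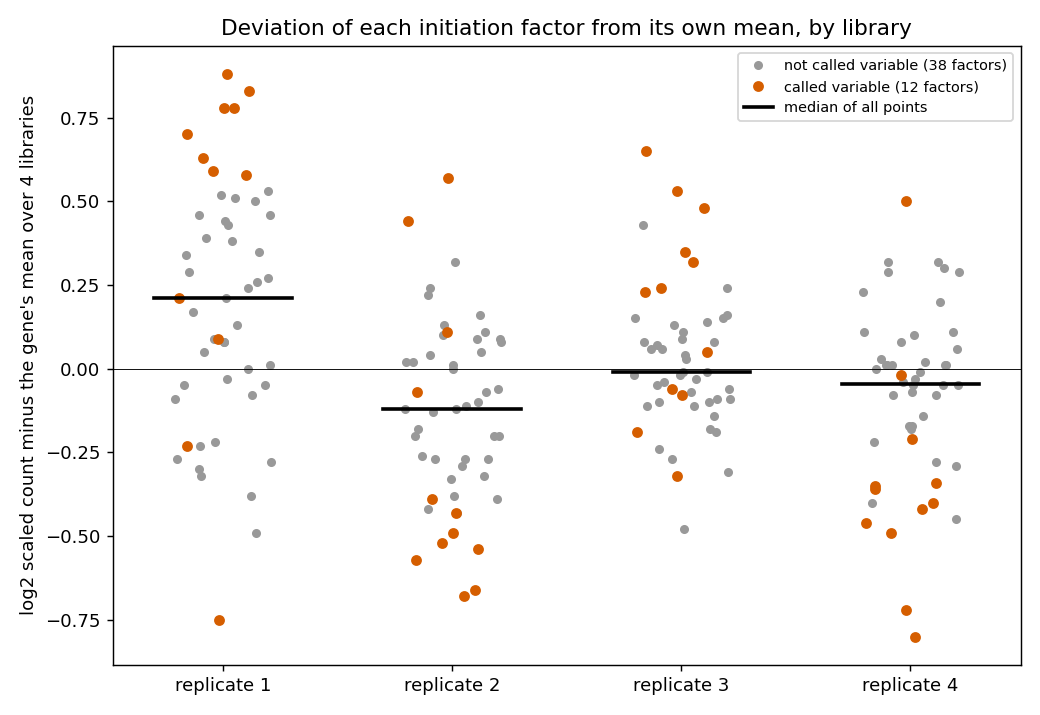
Deviation of each of the 50 tested factors from its own mean (log2 scaled count, y axis) in the 4 libraries; orange points are the 12 factors called variable and black bars are medians. The median lies at 0.21 in replicate 1 and between -0.12 and -0.01 in the other libraries.

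Among the factors grouped here under start codon selection, a label that does not describe each of them, Eif1ad and Eif5b were called. Eif1ad, which carries an eIF1A-like domain, was at 23.3, 7.67, 14.6 and 9.43 TPM, a 2.53-fold range of scaled counts (chi-square test, adjusted p = 6.37e-67). It overlaps Banf1 on the other strand by 428 bases, and Banf1 had a mean of 46 TPM; whether the counting used strand is not given in the sources used here, so reads of the pair may not have been told apart. Eif5b, the GTPase that joins the ribosomal subunits, was at 32.3, 36.1, 65.8 and 33.5 TPM. Only replicate 3 was high, with the other libraries within 4 TPM of each other, and the call was lost without replicate 3 and also without replicate 4. Replicate 3 is also the library in which neutrophil markers were high. Eif5, the GTPase-activating protein of eIF2, was at 119, 114, 111 and 89.0 TPM and was not called. Eif1b, the paralog of Eif1, was steady at 50.8, 43.9, 49.5 and 48.1 TPM. Eif1a and Eif1ax, the 2 genes of eIF1A, were at 81.0, 62.3, 67.6 and 40.9 TPM and at 50.2, 20.9, 14.9 and 10.8 TPM.

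The factors that deliver the initiator tRNA include the alpha and beta subunits of eIF2. Eif2s1, the alpha subunit whose phosphorylation marks the stress response, was at 62.6, 37.7, 43.7 and 26.0 TPM. Its range was 2.19-fold (chi-square test, adjusted p = 5.26e-244), with replicate 1 high and replicate 4 low. Eif2s2, the beta subunit, was at 86.3, 85.4, 108 and 44.4 TPM, a 2.4-fold range in which only replicate 4 was far below the rest. The call for Eif2s1 was lost without replicate 1 (range 1.66-fold) and without replicate 4, and that for Eif2s2 without replicate 3 (1.79-fold) or 4 (1.39-fold). Eif2s3x, the X-linked gene of the gamma subunit, was not among the members and was at 129, 76.0, 85.6 and 79.6 TPM. The 3 subunits of this trimer therefore had different library orders. Eif2a and Eif2d, which can bring tRNA to the ribosome without eIF2, had means of 32.9 ± 2.76 and 12.2 ± 1.27 TPM (SD, n = 4).

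The 5 subunits of eIF2B, the exchange factor that recharges eIF2, were less abundant, with means of 8.21 to 43.6 TPM. Eif2b3, the gamma subunit, was at 14.7, 5.02, 7.6 and 5.51 TPM, the only called subunit, with a range of 2.96-fold (chi-square test, adjusted p = 6.94e-38). Replicate 1 was the high library and the other 3 did not reach 8 TPM. Eif2b4, the delta subunit, was the steadiest, at 10.6, 9.36, 10.6 and 9.5 TPM (chi-square test, adjusted p = 0.183). Eif2b1, Eif2b2 and Eif2b5 had ranges of 1.9-fold, 1.29-fold and 1.6-fold. Of the eIF2 kinases, Eif2ak1, the heme-regulated one, was at 14.8, 22.2, 20.5 and 23.6 TPM. Eif2ak4, also called GCN2 and activated by uncharged tRNA, was at 7.94, 8.11, 5.73 and 7.29 TPM. Neither kinase was called.

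All 14 genes of eIF3 were detected, with a median of their means of 87.5 TPM. Apart from Eif3j1 and Eif3j2, Eif3g was the lowest, with a mean of 66.0 TPM, and Eif3h the highest. Eif3b, a core subunit, was called, with a range of 2.17-fold between replicates 1 and 2, and lost the call when either was left out. Of the other core and peripheral subunits, Eif3a, Eif3c, Eif3d, Eif3g, Eif3i and Eif3l were also highest in replicate 1, with ranges of 1.35-fold to 1.85-fold. Eif3f, Eif3h and Eif3k went the other way: Eif3f was at 74.8, 108, 72.7 and 106 TPM, and all 3 had their lowest scaled count in replicate 1 and their highest in replicate 4. The level of Eif3h over that of Eif3b, a pair chosen after its values were seen, was 0.954, 2.67, 1.35 and 2.0 in replicates 1 to 4. Eif3e and Eif3m varied least, with ranges of 1.12-fold and 1.11-fold.

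The genes Eif3j1 and Eif3j2 both encode the loosely bound subunit eIF3j. Their annotated coding sequences were identical over 783 aligned bases (100%). Short reads from this stretch can hardly be assigned between them, so each level is uncertain. The rest of their transcripts, which are 5413 and 2379 bases long, was not compared. Eif3j1 was at 21.6, 8.6, 18.2 and 9.6 TPM and Eif3j2 at 28.2, 10.7, 17.8 and 7.54 TPM. Both were called and both were highest in replicate 1. The mean log2 ratio of Eif3j1 to Eif3j2 was -0.08 ± 0.34 (SD, n = 4) in the gene table and -1.08 ± 0.42 in the second deposited quantification, which shows how far the split depends on the method.

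In the cap-binding group, Eif4e, the cap-binding protein itself, was called. It was at 149, 57.2, 93.0 and 55.1 TPM, a 2.79-fold range of scaled counts with replicate 1 highest, and remained called without replicate 1. Eif4e2, a cap-binding relative tied to repression, was at 77.8, 65.4, 89.9 and 69.9 TPM. Eif4e3, a further relative, was at 14.3, 17.2, 17.9 and 17.2 TPM. The mRNA order of Eif4e and Eif4e2 changed between libraries, with Eif4e higher in replicates 1 and 3 and Eif4e2 higher in replicates 2 and 4, while Eif4e3 was the lowest of the 3 in every library. Eif4g1, the main scaffold, was at 161, 100.5, 101.8 and 112 TPM and Eif4g3, its relative, at 38.7, 54.0, 44.8 and 44.4 TPM. Eif4a2, the second eIF4A helicase gene, was at 109, 109.7, 131 and 78.9 TPM, lowest in replicate 4, and was not called. Eif4a3, a helicase of the exon junction complex rather than of eIF4F, was at 105, 56.1, 56.5 and 57.5 TPM. Eif4h, which like Eif4b assists the helicase, had a mean of 109 ± 16.4 TPM (SD, n = 4).

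The 3 Eif4ebp genes each had their highest scaled count in replicate 2, where Eif4e had its lowest. Only Eif4ebp2 had its lowest in replicate 1. Eif4ebp2, at chr10:61428491-61452661 (minus strand) and the most abundant of the 3 on average, was at 16.1, 39.6, 20.0 and 34.9 TPM, with a 2.52-fold range. It was lowest in replicate 1, where Eif4e was highest, and high in replicates 2 and 4, where Eif4e was lowest. Eif4ebp1 was at 20.3, 21.7, 13.7 and 15.0 TPM and was not called. The level of Eif4ebp1 was above that of Eif4ebp2 in replicate 1 and below it in the other 3 libraries. Eif4ebp3 was called, but on a mean of 12.4 counts, and without replicate 2 its mean count was too low for it to be tested. Eif4enif1, the protein that carries eIF4E into the nucleus, was steady at a mean of 13.3 ± 0.939 TPM (SD, n = 4). Its highest scaled count was in replicate 1 and its lowest in replicate 2, as for Eif4e, with a range of 1.18-fold. It overlaps Drg1 on the other strand by 42197 bases, and Drg1 had a mean of 56.9 TPM. The limit given for Eif1ad therefore holds for Eif4enif1 too.

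Of the remaining factors, Eif5a was called, with a 2.42-fold range between replicates 1 and 2. Without replicate 1 its 263 to 382 TPM did not reach the 2-fold range, and the call was also lost without replicate 2. Eif6, which keeps the large ribosomal subunit from joining too early, was at 78.9, 43.7, 47.2 and 49.8 TPM. It was high in replicate 1 and not called, with a range of 1.79-fold.

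For gene pairs with related products, the ratio of TPM values was taken in each library and tested with a two-sided exact sign-flip test over the 4 libraries, which cannot give a p under 0.125. Of 12 pairs, 9 had a ratio of the same sign in 4 of 4 libraries, and each of these reached that smallest p (adjusted over the 12 pairs, 0.167), so none passes a threshold of 0.05. The 9 include Eif4ebp2 to Eif4ebp3, whose ratio in replicate 4 exists only because 0.01 TPM was added to a value of 0. The ratios are thus a description. Eif4a1 exceeded Eif4a2 by a log2 ratio of 2.97 ± 0.39 (SD, n = 4), or 7.84-fold. Eif1 exceeded Eif1b by 3.12 ± 0.14, or 8.7-fold, and the SD of this ratio was among the 2 smallest of the 12 pairs. Eif5a exceeded Eif5a2 by 7.18 ± 0.41, or 145-fold, the widest gap apart from a pair with a value of 0.

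Eif4g1 exceeded Eif4g3 by a log2 ratio of 1.37 ± 0.49, and Eif4g2 exceeded Eif4g1 by 1.42 ± 0.14 (SD, n = 4 each). Both were positive in every library. Eif4e exceeded Eif4e3 by 2.29 ± 0.79, and its ratio to Eif4e2 was 0.11 ± 0.57, which is within the spread between libraries. Eif1a was above Eif1ax in each library, with a log2 ratio of Eif1ax to Eif1a of -0.69, -1.58, -2.19 and -1.92. Between libraries the TPM of Eif1ax differed 4.65-fold but its scaled count 1.92-fold, as described below, so the change of this ratio over libraries is uncertain. Eif2ak1 was above Eif2ak4 by 1.47 ± 0.41. The ratio of Eif4ebp1 to Eif4ebp2 was -0.57 ± 0.66, with 3 of 4 libraries below 0. Eif4ebp2 exceeded Eif4ebp3 by log2 ratios of 3.08, 3.85 and 5.01 in replicates 1 to 3, and no ratio is given for replicate 4, where Eif4ebp3 is listed at 0.

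**Figure D3:**
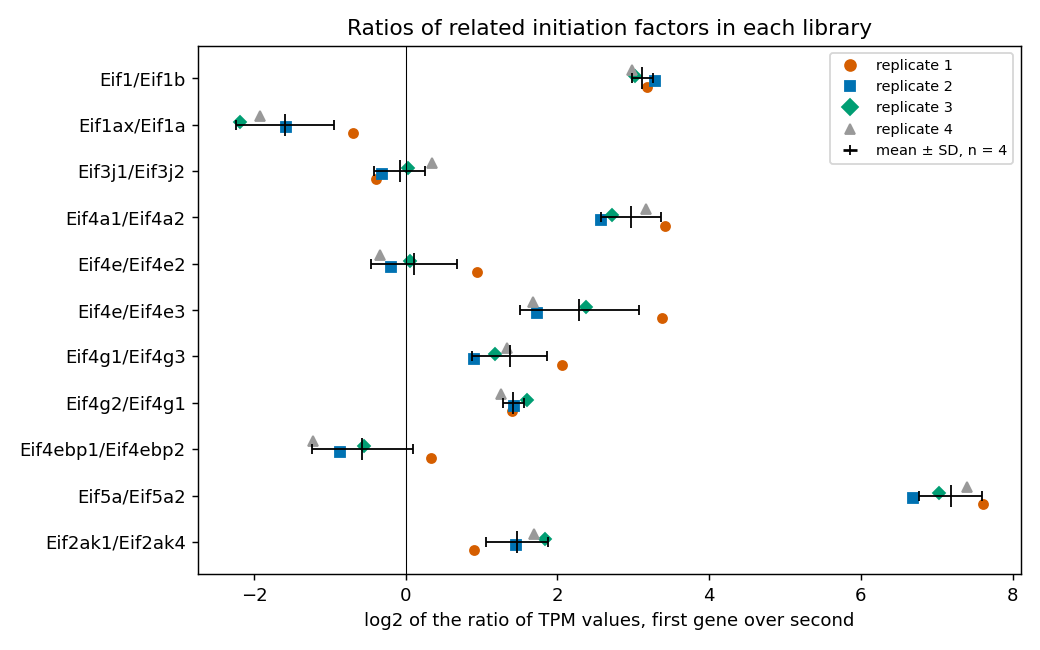
log2 ratio of TPM values for 11 pairs of related factors; coloured symbols are libraries, and black marks give the mean ± SD of 4 libraries. Ratios with Eif4a1, Eif1 and Eif5a as the first gene lie above 2 in every library, while Eif3j1/Eif3j2 and Eif4e/Eif4e2 lie on both sides of 0.

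The helicase Eif4a1 has a pseudogene copy, Eif4a-ps4, whose annotated transcript matched the Eif4a1 coding sequence at 99.9% of 1218 aligned bases. Reads from this stretch can hardly be told apart. Eif4a-ps4 received 2.49% to 2.95% of the Eif4a1 count in the gene table but 8.84% to 30.8% in the second quantification. The level of Eif4a1 is uncertain by about these shares. By comparison, the coding sequences of Eif1 and Eif1b matched at 81.1% of 339 bases, those of Eif1ax and Eif1a at 85.6% of 432 bases, and those of Eif5a and Eif5a2 at 75.2% of 456 aligned bases. Over the whole set, 15 factors overlap a gene on the opposite strand and 4 a gene on the same strand, leaving small RNA genes aside. One of the former is Eif2b4, which overlaps Snx17 (a mean of 44.3 TPM) by 204 bases. As the use of strand is not known, reads of such overlaps may not have been told apart.

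The deposited transcript tables give the share of each annotated transcript in its gene's TPM. In 47 of the 49 factors with a level of 1 TPM or more in every library, the transcript with the highest mean share was protein-coding. In 11 of the 49, or 22.4%, transcripts annotated as not protein-coding (retained introns, targets of nonsense-mediated decay, other processed transcripts) took at least 10% of the gene's TPM. Over all 9636 protein-coding genes at that level the share was 28.3%. In the second quantification 25.5% of the factors and 34.5% of all such genes met the same limit, with all 51 factors above 0 and so entering.

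In the quantification behind the gene table Eif4a2 had the largest share not annotated as protein-coding, 63.9 ± 6.38% (SD, n = 4). In the second its share was 54% on average, beside 56% for Eif5b and 54.3% for Eif4ebp1. Its most abundant transcript, of 1737 bases, is annotated as a target of nonsense-mediated decay and took 27.2%, 36.2%, 43.7% and 29.6% of the gene's TPM. The gene level of Eif4a2 includes these transcripts. In Eif2b2 a retained intron form of 338 bases took 56.3%, 49.2%, 43.6% and 49.2%, and the leading coding transcript 36%, 49.3%, 52.5% and 46.8%. The retained intron form was highest on average in this quantification but below the coding one in replicate 3 and level with it in replicate 2, and in the second quantification the coding one was higher, at 55.2% against 37.4%. In Eif4ebp1 a processed transcript took 47.1 ± 9.23% (SD, n = 4), and in Eif2a the transcripts that are not coding summed to 37.1 ± 10.5% and to 17.6% in the second quantification.

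Eif1ax had the widest spread of this share between libraries. Its retained intron transcript of 416 bases took 65.0%, 56.4%, 11.0% and 12.7% of the gene's TPM in replicates 1 to 4, so replicates 1 and 2 were high and replicates 3 and 4 low without overlap. The second quantification gave 67.2%, 62.3%, 9.71% and 32.7%, with the same division. TPM divides the count of each transcript by its length, and the gene's TPM differed 4.65-fold between libraries while its scaled count differed 1.92-fold, the widest gap between both measures among the factors. Eif1ax was not alone in this division. In the second quantification a processed transcript of Eif1 (383 bases) took 30.3%, 29.1%, 1.08% and 0.674%. That of Eif2s1 (433 bases) took 43.2%, 50.6%, 5.33% and 0%. In the quantification behind the gene table they took 3.17%, 2.94%, 1.68% and 1.42%, and 0%, 21.7%, 0% and 0%. A processed transcript of Eif6 (402 bases) did not divide this way, at 3%, 6.93%, 10.3% and 2.28% in the second. Replicates 1 and 2 are also those with 6 read files, and the part of this in the shares was not tested. For Eif5b, the share not annotated as coding was 15.1 ± 9.1% in 1 quantification and 56.0% in the other, so it cannot be fixed from these tables, and the same holds for Eif4g1 at 28.8 ± 6.18% and 12.7%.

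**Figure D4:**
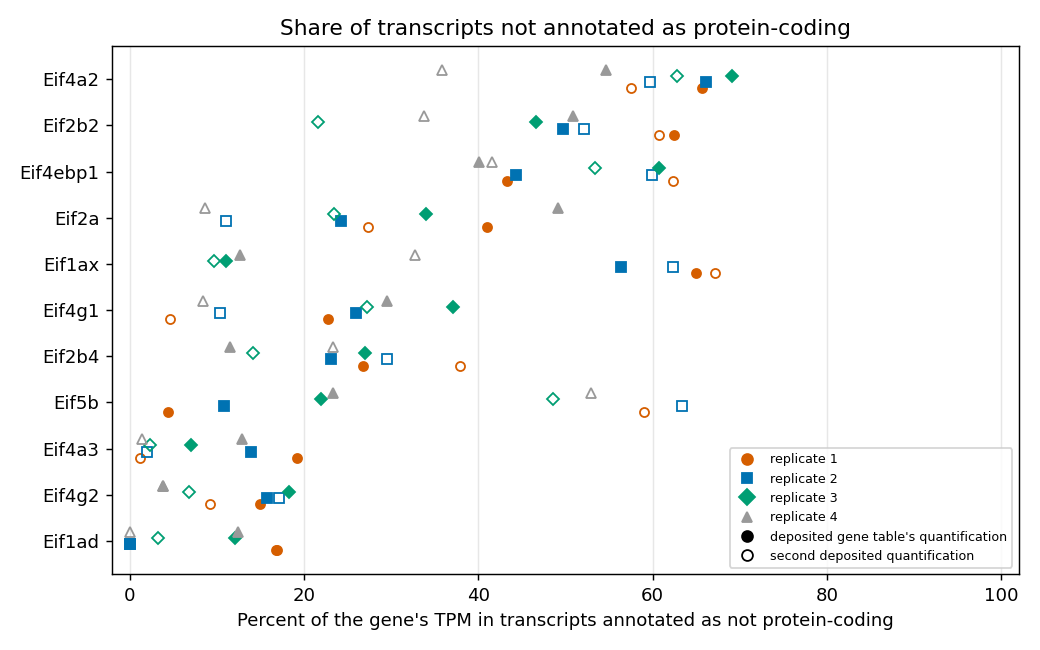
Percent of the gene's TPM in transcripts not annotated as protein-coding for the 11 factors where its mean was 10% or more; filled symbols are the quantification behind the gene table and open symbols the second one, with 1 symbol per library. Eif1ax splits into replicates 1 and 2 at 56.4% to 67.2% and replicates 3 and 4 at 9.71% to 32.7%, and for Eif5b the open symbols lie above all filled ones.

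The initiation factors are themselves translated by the machinery they form, so the start codons of their own mRNAs were read from the GENCODE M21 transcripts, using for each gene its most abundant complete coding transcript. An ATG start was found for 49 factors. For Eif4g2, whose protein is known to start at a GUG codon, no first codon was read. The annotated coding sequence of the transcript used for Eif4g3 began with GTG. Of 48 with bases enough before it, 43, or 89.6%, had a purine 3 bases before the ATG, against 86.7% of 9447 expressed protein-coding genes. A G right after the ATG was present in 45.8% and 54.3%. Both features were absent in 3 factors, or 6.25%, which is near the 6.26% of the expressed genes. The 3 were Eif1, which is known for a poor start site through which its protein limits its own translation, its paralog Eif1b, and Eif3b. They are shown with 3 strong sites for comparison, with the start codon in capitals, 3 bases before it and 1 after.
Eif1: cgtATGt
Eif1b: cgcATGt
Eif3b: cccATGc
Eif2b1: gccATGg
Eif2ak4: gccATGg
Eif5a2: accATGg
These letters come from the annotation and not from the libraries, and they describe the sites without measuring their use. The stretch before the start codon had a median of 115 bases in the factors and 155 bases in the expressed genes. An ATG within that stretch was present in 9 factors, or 18.4%, against 47.9% of the 9598 expressed genes. Eif5 had 5 of them, the most of any factor, and Eif2b4 had 4.

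Promoter windows from 250 bases before to 50 bases after the start of transcription were available from RefSeq (GRCm38.p6) for 39 of the 51 factors, with 52 windows in all. The E-box CACGTG, which reads the same on both strands and is the sequence bound by Myc, Max, Usf and Tfe3 family proteins, was present in windows of 10 of the 39 factors, or 25.6%. Over the 7865 other genes with windows and 1 TPM or more in every library, 12.7% had it, and over all 32851 windows 7.15% held it, against 23.1% of the factors' windows. The factors' windows were also richer in G and C, at a median of 62.7% against 60.7% in expressed genes. GGGCGG, searched on both strands, was in 73.1% and 63.2% of windows, CCAAT in 26.9% and 37.3%, and TATAAA in 5.77% and 7.06%. The factors with CACGTG were Eif1b, Eif3a, Eif3f, Eif3k, Eif4a1, Eif4e, Eif4g1, Eif4h, Eif5a and Eif5a2, 2 of which (Eif4e and Eif5a) were called variable. Stretches of 30 bases around the motif, which is in capitals, follow for 5 of them to show its surroundings and strand 5′ to 3′.
Eif4a1: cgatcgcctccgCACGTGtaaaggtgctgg
Eif5a: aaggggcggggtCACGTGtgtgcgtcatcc
Eif4g1: ggcagtgggtgtCACGTGatggggcggagc
Eif3f: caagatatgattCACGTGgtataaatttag
Eif3k: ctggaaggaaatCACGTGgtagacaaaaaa
They lie at chr11:69672595-69672624 (minus strand), chr11:69921443-69921472 (minus), chr16:20672661-20672690 (plus), chr7:108934335-108934364 (plus) and chr7:28981915-28981944 (minus). The motif begins 189, 74, 54, 68 and 44 bases before a RefSeq start. By scaled count Eif4a1 and Eif5a were highest in replicate 1 and Eif3f and Eif3k lowest there, so these genes with the same letters had different library orders. A match describes the sequence and is no measure of binding.

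The pathway around the factors was read from lists of genes that act on initiation or follow it. Of 16 genes of kinase control over initiation, all tested, 4 were called variable, beside 33.0% of all genes tested; without replicate 1 none of the 16 was called, beside 16.1% of all genes. Mknk1 and Mknk2, the kinases that phosphorylate eIF4E, were at 37.8, 93.0, 69.4 and 81.6 TPM and at 42.3, 89.8, 42.6 and 67.4 TPM. Mknk1 was lowest in replicate 1, and Mknk2 was about equally low in replicates 1 and 3. Rptor, the mTORC1 subunit that binds the eIF4E-binding proteins, was at 25.6, 14.3, 11.3 and 14.0 TPM, highest in replicate 1. Pdcd4, an inhibitor of eIF4A, was at 2.0, 8.86, 6.0 and 6.07 TPM, lowest in replicate 1. The list's summed level of 991 to 1042 TPM was nearly the same in every library. Pabpc1, the poly(A)-binding protein, was highest at a mean of 556 TPM, with 616, 495, 527 and 585 TPM in replicates 1 to 4. It made up a large part of the sum, which therefore does not show that the other genes were steady.

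Among 12 genes of the integrated stress response, 11 could be tested and 4 were called, beside 33.0% of all genes tested: Gcn1, Impact, Ppp1r15a and Asns. Without replicate 1 only Ppp1r15a was called, beside 16.1% of all genes, with a range of 2.89-fold. Ppp1r15a, the inducible subunit that directs dephosphorylation of eIF2 alpha, was at 555, 1124, 487 and 1472 TPM and was the highest of this list. Replicates 2 and 4 were high and replicates 1 and 3 low, with a range of 3.25-fold. Gcn1, the activator of the kinase Eif2ak4, was at 16.8, 14.5, 8.16 and 11.3 TPM. Impact, an inhibitor of that activation, was at 17.6, 32.3, 36.9 and 24.6 TPM, lowest in replicate 1, where Gcn1 was highest. Asns, asparagine synthetase and a target of Atf4, was at 7.28, 2.52, 3.15 and 3.73 TPM.

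Of 14 genes of elongation, termination, recycling and hypusine formation, 5 were called, beside 33.0% of all genes tested, and all 5 were highest in replicate 1, where 13.6% of all genes were called and highest: Eef1g, Eef1e1, Gspt1, Abce1 and Dohh. Without replicate 1 only Eef1e1 was called, with a range of 2.3-fold, and the other 4 had ranges of 1.44-fold to 1.73-fold. Abce1, which splits ribosomes after termination, was at 58.0, 19.7, 27.7 and 18.7 TPM. Dohh, which completes the hypusine residue on eIF5A, was at 29.7, 22.3, 12.6 and 16.5 TPM. Eef1g, a subunit of the elongation factor exchange complex, was at 351, 156, 219 and 201 TPM, and Eef1e1 at 26.5, 4.08, 9.87 and 9.84 TPM. Gspt1, the release factor eRF3a, was at 101.9, 48.5, 97.3 and 61.0 TPM. Eef1a1, which brings aminoacyl tRNA to the ribosome, was highest of the list at a mean of 5838 TPM.

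The libraries also differ in the number of read files listed, 6 for replicates 1 and 2 and 4 for replicates 3 and 4, and this contrast was fitted over all genes with edgeR's quasi-likelihood test. No factor passed an adjusted p of 0.05 (0 of 50), nor did any of the 12701 genes tested (0%). At an unadjusted p under 0.05 there were 0 factors and 290 genes, and DESeq2 called 0 factors and 35 of 14616 genes. On simulated counts with the same design edgeR recovered 2% of 2-fold changes and 35% of 4-fold changes among 12739 genes, so differences of that size between these pairs of libraries may have gone undetected.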

How the data were processed

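Poly(A) RNA-seq was measured in 4 libraries of 1 group. The deposited gene tables give an expected count and TPM per gene of GENCODE M21 (mm10), with posterior means and credibility interval bounds (used as signal) also deposited; a second deposited transcript table gives estimated counts and TPM. The column names are those that RSEM and kallisto write, per the file headers; no source used here gives tool versions or the use of strand. Rows for spike-ins, phiX (0.103% to 0.118%) and entries that name no gene stayed out. Counts were scaled by TMM (edgeR 4.0.16) and rounded for count models; a chi-square test (3 degrees of freedom, SciPy 1.17.1) with Benjamini-Hochberg adjustment compared the libraries for genes with a mean count of 10 or more. DESeq2 1.42.0 was an alternative. TPM ratios used a pseudocount of 0.01 TPM. Both tests were tried on simulated data. For the chi-square test the counts had counting noise alone apart from the changed genes, and the 2-fold range was not applied. It recovered 100% of 2-fold changes with 9 false calls among 12526 genes. In the real libraries 88.6% of genes varied beyond counting noise, so this checks the calculation and not the calls. Depth was 26917324 to 39438414 counts per library.

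Members and lists were chosen with earlier results of these data known. Values in every library are given for the 10 factors of highest mean TPM, those called variable, those in paralog pairs and those under 1 TPM in any library; the others are given by role, and from each pathway list those called variable and the highest. Gcn1 is listed as Gcn1l1 in the annotation. The result of 1 marker list is not reported here. Alternatives were another scaling, other count filters, a 1.5-fold range, the second quantification, other pseudocounts and leaving out each replicate. Promoters came from RefSeq; motifs and transcript starts were read with Python 3.11.15 and coding sequences aligned with Biopython 1.88.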

Additional observations from a re-analysis of the deposited data

Results flagged for a closer look

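Of the 50 factors with unequal values, 5 had 1 library far from the other 3 by Dixon's criterion for 4 samples, where chance flags about 1 in 20 and so 2.5 would be expected. The share was 10% of these factors and 8.85% of the 12626 genes tested for the same gap; 3 factors and 5.35% of the genes were set apart as high in replicate 1. Eif4a3, the exon junction helicase, was at 104.69 TPM in replicate 1 against 56.09 to 57.51 TPM in the others. Eif2b5, the catalytic subunit of eIF2B, was at 29.89 TPM in replicate 1 against 16.45 to 18.60 TPM. Eif3l, an eIF3 subunit, was at 90.44 TPM in replicate 1 against 63.27 to 67.65 TPM. Eif2a was the reverse, at 28.78 TPM in replicate 1 against 33.70 to 34.69 TPM. Eif5b was at 65.83 TPM in replicate 3 against 32.27 to 36.12 TPM. Replicate 1 also had the highest summed Mcm2 to Mcm7, and replicate 3 the highest summed neutrophil markers; their part in these values was not tested.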

How the results depend on the processing

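The count of 12 factors called variable was 29 with a 1.5-fold range in place of 2-fold (58.2% of all genes tested) and ran from 6 to 10 when 1 replicate was left out, 6 being the value without replicate 1. It was 12 with DESeq2 size factors, 11 with a mean count of at least 100 and 14 in the second quantification, which added Eif1ax and Eif2b1. Leaving out 1 replicate took the fold range of a called factor under 2-fold in 13 cases, and Eif4ebp3 could not be tested without replicate 2 or with a mean count of at least 100. Of the pair ratios, 2 that lay within the spread between libraries changed sign without replicate 1: the log2 ratio of Eif3j1 to Eif3j2 ran from -0.22 to 0.02 and that of Eif4e to Eif4e2 from -0.16 to 0.26 when 1 replicate was left out. The pathway lists without replicate 1 were added after seeing the data. No paired analysis was possible because there is 1 group. Depth limits Eif4ebp3 (a mean of 12.4 counts) and Eif4e1b (0 counts). Coding sequence shared with another gene or a pseudogene limits Eif3j1, Eif3j2 and Eif4a1. With 4 libraries of 1 treatment, nothing here bears on the stimulus.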
